A study of Homo sapiens with 9 samples.

Results

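Transcript levels were followed for 46 genes of the interferon response and of antigen presentation by MHC class I, out of 36810 genes in the table. They were taken by symbol and cover antiviral effectors, the factors that switch them on, class I chains, the peptide loading machinery and the immunoproteasome. The choice of genes was made with earlier results of these data known. The cells were 143B, an established human osteosarcoma line, with no engineered allele named in the labels, and 9 messenger RNA libraries fell into 3 groups of 3. The treated groups had 0.5 µM XD23 for 24 h or 48 h, and the control group was taken at 0 h; the labels give XD23 no name other than this code. The labels name neither a vehicle nor untreated cells at 24 h or 48 h, so the compound and time in culture cannot be told apart. Whether replicate libraries stem from separate cultures is not stated either, so p-values measure the spread between these libraries and nothing more.

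In most cells, sensors of foreign RNA or DNA switch on type I interferon, which binds its receptor and acts through the kinases JAK1 and TYK2 on a complex that holds STAT2 and IRF9. That complex binds the interferon-stimulated response element (ISRE) in promoters, while interferon gamma acts through JAK1 and JAK2 on the gamma-activated site (GAS). The genes switched on this way block viral entry, translation and replication, and also raise the cutting of proteins into peptides, peptide transport by TAP1 and TAP2 and the display of peptides on HLA class I chains held by beta-2 microglobulin. In tumours, class I display is what cytotoxic T cells read, and tumour cells can carry a low interferon signature with no virus present.

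The promoter windows of 5 genes that were higher at 48 h are shown because they hold different arrangements of the elements through which this response is known to act. The sequences are from RefSeq (GRCh38.p14), read 5′ to 3′ on the strand of the gene, and each covers the 250 bases before the listed transcription start. Capitals mark letters that match an ISRE (GAAANNGAAA), a GAS (TTCNNNGAA, which reads alike on both strands) or a kB site (GGGANNNNCC, bound by NF-kB), each searched on both strands with overlapping matches counted. The windows lie at chr1:78649539-78649788 on the plus strand for IFI44, and on the minus strand at chr4:168318753-168319002 for DDX60, chr6:31357180-31357429 for HLA-B, chr6:31272093-31272342 for HLA-C and chr6:32853705-32853954 for TAP1.
IFI44: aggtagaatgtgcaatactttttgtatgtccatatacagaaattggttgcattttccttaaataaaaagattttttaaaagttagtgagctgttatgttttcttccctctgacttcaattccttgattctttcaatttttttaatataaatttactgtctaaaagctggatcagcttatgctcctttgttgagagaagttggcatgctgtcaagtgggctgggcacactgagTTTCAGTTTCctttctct
DDX60: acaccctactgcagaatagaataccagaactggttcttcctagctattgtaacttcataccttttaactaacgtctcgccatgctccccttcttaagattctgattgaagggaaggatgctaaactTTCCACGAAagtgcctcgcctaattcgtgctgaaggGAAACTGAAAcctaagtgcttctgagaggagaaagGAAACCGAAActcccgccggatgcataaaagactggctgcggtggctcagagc
HLA-B: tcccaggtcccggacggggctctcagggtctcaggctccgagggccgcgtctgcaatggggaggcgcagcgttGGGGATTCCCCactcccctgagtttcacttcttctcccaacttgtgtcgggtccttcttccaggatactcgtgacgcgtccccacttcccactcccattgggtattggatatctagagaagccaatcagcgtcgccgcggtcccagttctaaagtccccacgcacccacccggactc
HLA-C: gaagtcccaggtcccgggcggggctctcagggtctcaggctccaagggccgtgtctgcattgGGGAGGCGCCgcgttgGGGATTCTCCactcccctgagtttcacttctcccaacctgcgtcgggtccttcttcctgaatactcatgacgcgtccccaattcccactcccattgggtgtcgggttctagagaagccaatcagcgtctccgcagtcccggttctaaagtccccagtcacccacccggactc
TAP1: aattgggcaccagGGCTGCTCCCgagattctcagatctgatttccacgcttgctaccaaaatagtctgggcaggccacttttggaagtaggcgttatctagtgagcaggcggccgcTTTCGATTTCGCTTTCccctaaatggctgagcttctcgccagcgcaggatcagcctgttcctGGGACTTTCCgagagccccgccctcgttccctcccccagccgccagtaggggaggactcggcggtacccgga

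The IFI44 window held 1 ISRE match, on the reverse strand, beginning 18 bases before the start. In DDX60 there were 2 ISRE matches and 1 GAS match. HLA-B and HLA-C each had 2 kB matches and no match to the ISRE letters used here, and in HLA-B the 2 matches overlap on opposite strands. TAP1 combined 2 overlapping ISRE matches with 2 kB matches in the letters shown. Promoters were listed for 38 of the 46 genes, taking the first start where several were listed, and over the full windows of 250 bases before to 50 bases after the start an ISRE match was found in 26 of the 38, against 3.57% of all 35116 promoters of that length. A GAS match was found in 9 of the 38 against 7.66% of all promoters, and a kB match in 14 of the 38 against 25.6%. No window was listed for OAS2, NLRC5, IFITM2, OASL, HLA-E, IFIT2, IRF7 and TRIM22. A match is a run of letters and was not measured as a bound site in these cells.

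The libraries held 18341542 to 22901830 fragments, as worked out from the values. Levels are in FPKM (fragments scaled to gene length and library depth), and for a gene of 1 kilobase a single fragment made 0.0437 to 0.0545 FPKM. The 48 h libraries held 20304122 to 22901830 fragments and the control libraries 18341542 to 20434029. The 24 h replicate 3 library stood apart from all others on the second principal component (24.7, against -9.06 to 6.96 in the other 8), and it differed from the other 24 h libraries more than any other pair within a group did, with a chi-square per degree of freedom of 22.954 and 19.726 against 2.219 to 5.739. Of 8 markers of mesenchymal and bone-forming cells, VIM, SPARC, CDH11 and RUNX2 were present, while COL1A1, COL1A2, ALPL and SP7 lay under 1 FPKM in every library. The leukocyte list (6 genes found) summed to 0.342 to 0.549 FPKM in 48 h libraries, 0.257 to 0.375 in 24 h libraries and 0.438 to 0.572 in control libraries, with PTPRC and LYZ under 0.1 FPKM throughout.

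Before treatment the 46 genes covered a wide range of levels. In control libraries 8 averaged at least 10 FPKM, 24 lay between 1 and 10 FPKM and 14 lay under 1 FPKM, 7 of them under 0.3 FPKM. B2M, the invariant light chain of class I, was the most abundant of them at 70.7 ± 2.8 FPKM (SD, n = 3 here and for all means below), followed by the entry blockers IFITM2 at 56.6 ± 3.59 and IFITM3 at 42.1 ± 0.755 FPKM. The heavy chains HLA-E, HLA-C and HLA-B came next at 35.2 ± 1.89, 24.8 ± 0.219 and 16.9 ± 0.678 FPKM, and no 2 of these 6 genes overlapped in their control libraries. TAPBP (tapasin, which links class I chains to the peptide transporter) at 12.9 ± 0.0158 FPKM and IFIT5 at 10.6 ± 0.251 FPKM completed the upper group. PSMB8, TRIM21, DTX3L, ISG15 and PARP14 lay at 7.28 to 8.72 FPKM, and neighbours in that order mostly overlapped in their libraries. Several induced genes were near the floor. MX1, a GTPase against influenza viruses, was at 0.103 to 0.124 FPKM in control libraries, and IFI44L, OAS2, TRIM22, OAS1 and IFI27 averaged under 0.1 FPKM.

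**Figure D1:**
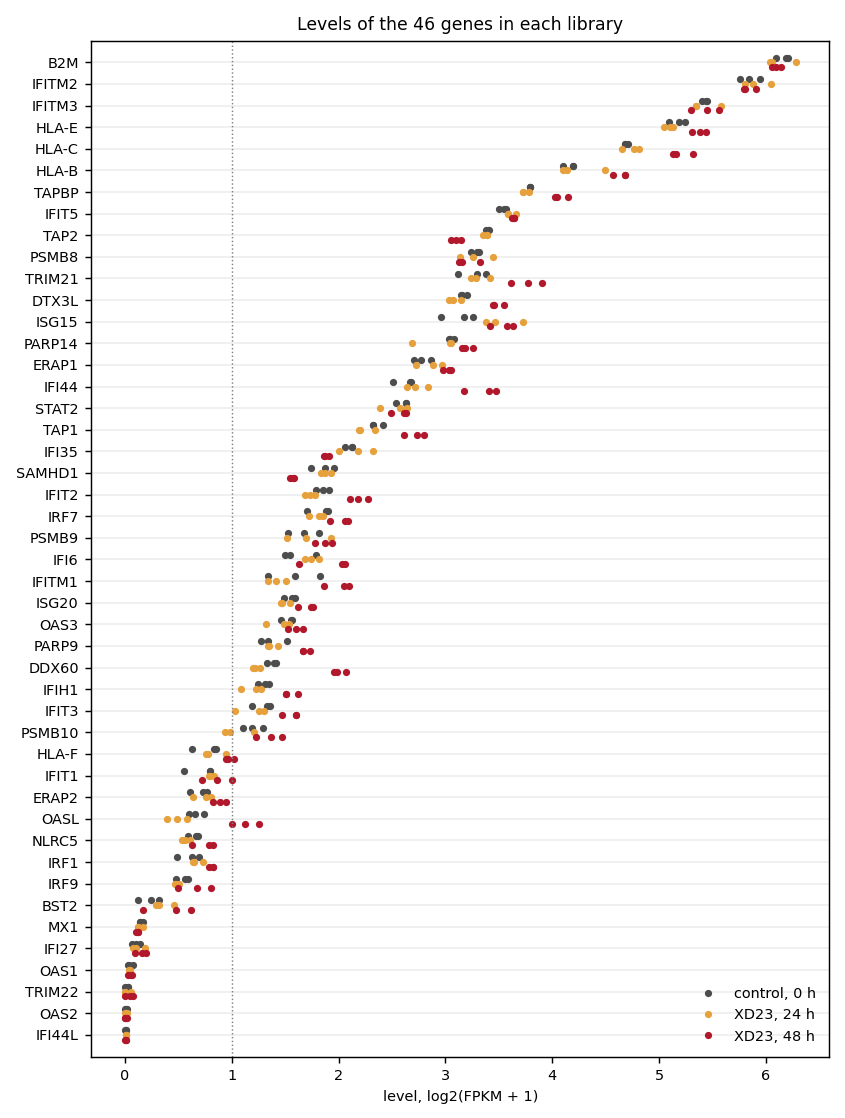
Level of each of the 46 genes in each of the 9 libraries, as log2(FPKM + 1) on the horizontal axis, with genes ordered from the highest to the lowest control mean and 1 point per library (control, 24 h, 48 h from top to bottom within a gene). The dotted line marks 1 FPKM, the level a gene had to reach in at least 3 libraries to be tested. The highest gene is B2M, and the 14 genes at the bottom lay under that line or reached it in too few libraries.

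After 48 h with XD23, transcripts from part of this programme stood higher. Of the 46 genes, 32 were abundant enough to be tested, and 15 of the 32 rose, 2 fell and 15 were not called (limma on log2(FPKM + 1), adjusted p under 0.05 over 13657 genes). Over all genes tested, 13.3% were called higher and 15.2% lower in the same comparison. Because the 46 genes were chosen with earlier results known, setting them beside these shares is not an independent test. The genes that rose were led by IFI44 (log2 fold change 0.73) and the RNA sensor DDX60 (0.62), followed by the heavy chains HLA-C (0.51) and HLA-B (0.48) and the antibody receptor TRIM21 (0.50). SAMHD1, which removes nucleotides that viruses need, and TAP2, a transporter subunit, fell (both -0.29).

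The median log2 fold change of the 32 genes was 0.22, beside -0.02 for all genes tested, and 25 of the 32 were positive. In 20 of the 32 every 48 h library lay above every control library, and in 3 every one lay below; over all genes tested these shares were 22.7% and 27.7%. Because 14 genes were not tested, these counts do not describe all 46. As folds of mean FPKM, which the added pseudocount does not shrink, the largest among the 32 were 1.88 for DDX60 and 1.80 for IFI44. In bulk RNA, a change in the number of responding cells and a change in the RNA of each cell cannot be told apart.

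**Figure D2:**
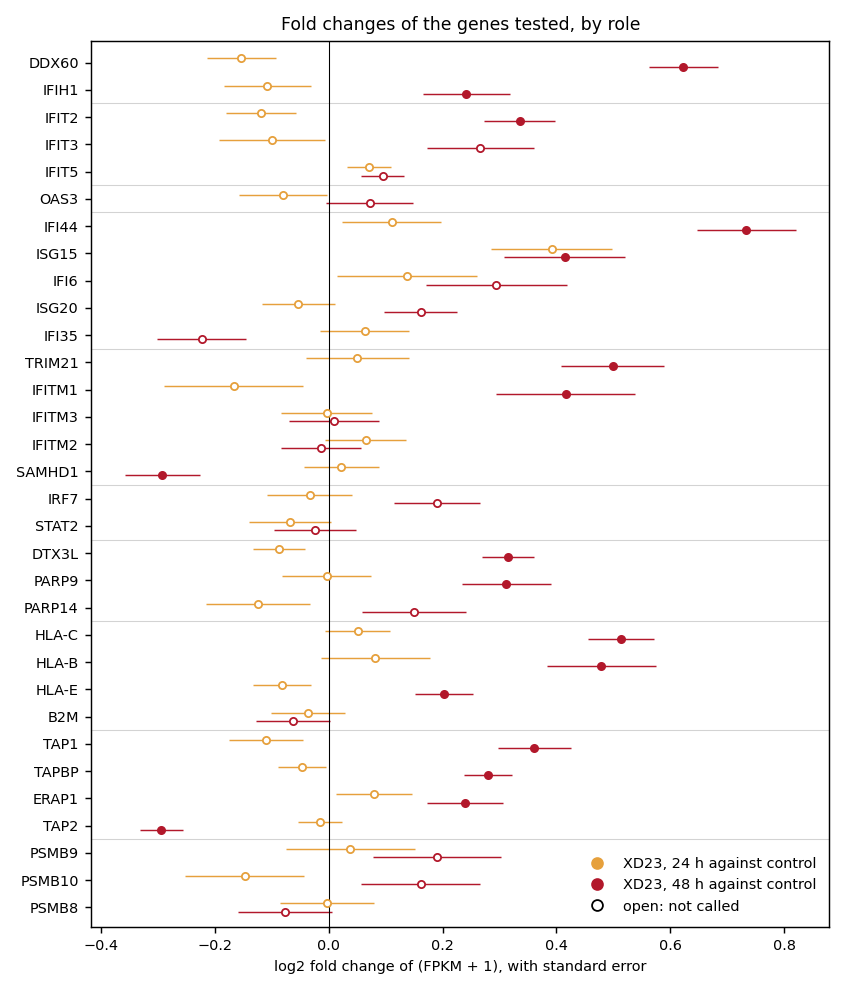
Log2 fold change of (FPKM + 1) with its standard error for the 32 genes tested, at 24 h and 48 h against the same 3 control libraries, grouped by role from sensors at the top to immunoproteasome subunits at the bottom. Filled points were called at an adjusted p under 0.05: 15 higher and 2 lower at 48 h, and none at 24 h.

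Both tested sensors were higher at 48 h. DDX60 (ENSG00000137628, chromosome 4, 168216293 to 168318807, minus strand, GRCh38), a helicase that aids the recognition of viral RNA, had 2.945, 3.20 and 2.88 FPKM in 48 h libraries, against 1.52, 1.63 and 1.66 FPKM in control libraries. The groups were far apart, and the log2 fold change was 0.62 ± 0.06 (SE; adjusted p = 0.000233). IFIH1, which encodes the double-stranded RNA sensor MDA5, had 2.07, 1.83 and 1.85 FPKM in 48 h libraries, against 1.37, 1.48 and 1.54 FPKM in control libraries. Every 48 h library lay above the controls, by a smaller margin, with a log2 fold change of 0.24 ± 0.08 (adjusted p = 0.0438). The IFIH1 call was fragile: it ended without any 1 of the control or 48 h libraries, without 24 h replicate 2, without the filter and with the replicate number as a block (0.0721), and adjusted p ranged from 0.0156 to 0.14 over the alternatives.

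The IFIT proteins bind viral RNA ends and hold back translation, and their 4 genes lie side by side on chromosome 10. IFIT2 rose, with 3.30, 3.53 and 3.83 FPKM in 48 h libraries, against 2.75, 2.62 and 2.44 FPKM in control libraries. Its groups did not overlap, and the log2 fold change was 0.34 ± 0.06 (adjusted p = 0.00468). IFIT3, which stabilizes IFIT1, had 1.77, 2.04 and 2.04 FPKM in 48 h libraries, against 1.28, 1.56 and 1.52 FPKM in control libraries. The groups were apart here too, but the difference missed the threshold (0.27 ± 0.09, adjusted p = 0.0633). That gene did pass without 24 h replicate 2 or 3 (adjusted p = 0.0409 and 0.0451), with voom weights (0.0331), with quantile normalization (0.0493), with no trend (0.0456) and in a fit to only the 2 groups (0.0349). IFIT5 differed little, with 11.5, 11.5 and 11.3 FPKM in 48 h libraries and 10.85, 10.4 and 10.7 FPKM in control libraries (0.09 ± 0.04, adjusted p = 0.0966), and it was called only without 24 h replicate 3 (0.0397). IFIT1, the founding member, was below the filter at 0.643 to 1.00 FPKM in 48 h libraries and 0.466 to 0.733 FPKM in control libraries, and its groups overlapped. IFIT1, IFIT2 and IFIT3 lie inside the span of LIPA on the other strand, which reached 11.8 FPKM. The labels state no strand-specific counting and shared exons were not looked for, so reads from such pairs may be mixed.

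The OAS genes make the short RNA messenger that activates RNase L, and they were low in 143B. OAS3 was the only one tested, at 2.02, 2.175 and 1.89 FPKM in 48 h libraries against 1.74, 1.94 and 1.96 FPKM in control libraries, with overlapping groups (0.07 ± 0.08, adjusted p = 0.527). OASL, which lacks that enzyme activity and strengthens RNA sensing, had 1.18, 1.39 and 0.998 FPKM in 48 h libraries, against 0.519, 0.578 and 0.673 FPKM in control libraries. Every 48 h library lay above every control, at a ratio of means of 2.01, but OASL reached 1 FPKM in too few libraries to be tested. In a fit with no filter OASL was called higher, by 0.46 on the log2 scale (adjusted p = 0.029), and it rests on 43 to 201 fragments per library. OAS1 (6 to 12 fragments) and OAS2 (0 to 3 fragments) were too low to compare.

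Among the other induced effectors IFI44 and ISG15 rose. IFI44 (ENSG00000137965, chromosome 1, 78649796 to 78664078, plus strand), an interferon-induced gene with antiviral activity, had 8.05, 10.1 and 9.59 FPKM in 48 h libraries, against 5.355, 5.38 and 4.71 FPKM in control libraries. All 48 h libraries stood well above the controls, and the log2 fold change was 0.73 ± 0.09 (adjusted p = 0.000566), the largest of the 32. Its neighbour IFI44L, 3650 bases away on the same strand, had 0 to 2 fragments in each library. ISG15, a ubiquitin-like protein attached to other proteins after interferon, had 9.71, 10.9 and 11.4 FPKM in 48 h libraries, against 8.015, 8.54 and 6.79 FPKM in control libraries. Its groups did not overlap, though the controls were spread widely (0.41 ± 0.11, adjusted p = 0.0193). Leaving out control replicate 3, 48 h replicate 2 or 48 h replicate 3 took ISG15 over the threshold (adjusted p 0.0641 to 0.0657), as did dropping the filter (0.0636).

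ISG20, an exonuclease that degrades viral RNA, had 2.08, 2.395 and 2.34 FPKM in 48 h libraries, against 1.81, 2.01 and 1.95 FPKM in control libraries. The groups did not overlap, but it was not called (0.16 ± 0.06, adjusted p = 0.0932). IFI6, which blocks the remodelling of membranes by flaviviruses, had overlapping groups, with 3.08, 2.10 and 3.16 FPKM in 48 h libraries and 2.46, 1.82 and 1.92 FPKM in control libraries (0.29 ± 0.12, adjusted p = 0.108). IFI35 went the other way, with 2.65, 2.65 and 2.77 FPKM in 48 h libraries, against 3.37, 3.37 and 3.17 FPKM in control libraries. All its 48 h libraries lay below the controls without passing the threshold (-0.22 ± 0.08, adjusted p = 0.0624). IFI35 did pass without 24 h replicate 1 or 2 (adjusted p = 0.03 and 0.0238) and in a fit to only the 2 groups (0.0124), and IFI6 passed without 48 h replicate 2 (0.0208). MX1, with 30 to 45 fragments per library, was also lower in each 48 h library (0.0728 to 0.0887 FPKM) than in any control (0.103 to 0.124 FPKM), and IFI27 had 4 to 14 fragments; neither was tested. A fit with no filter did not call MX1 (adjusted p = 0.511).

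The restriction factors split. TRIM21 (ENSG00000132109, chromosome 11, 4384897 to 4393696, minus strand), a cytosolic antibody receptor and ubiquitin ligase, had 11.25, 12.7 and 13.9 FPKM in 48 h libraries, against 9.41, 8.82 and 7.66 FPKM in control libraries. The groups did not overlap, and it rose by 0.50 ± 0.09 (adjusted p = 0.00439). IFITM1, which blocks fusion at the cell surface, had 2.63, 3.28 and 3.13 FPKM in 48 h libraries, against 1.53, 2.01 and 2.55 FPKM in control libraries. The highest control nearly touched the lowest 48 h library (0.42 ± 0.12, adjusted p = 0.0331), and it missed the threshold with no filter, and once control replicate 1, control replicate 2, 48 h replicate 2 or 48 h replicate 3 was removed (adjusted p up to 0.111). IFITM2, a relative that acts in endosomes, had 54.35, 54.7 and 59.2 FPKM in 48 h libraries and 60.4, 56.3 and 53.25 FPKM in control libraries (-0.01 ± 0.07, adjusted p = 0.91). IFITM3 had 42.8, 38.4 and 46.3 FPKM in 48 h libraries and 42.6, 42.5 and 41.3 FPKM in control libraries (0.01 ± 0.08, adjusted p = 0.945). Both pairs of groups overlapped, and since the IFITM genes are close copies and the IFITM1 annotation lies inside that of IFITM2, reads may be split between them and these values are uncertain.

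SAMHD1 (ENSG00000101347, chromosome 20, 36889773 to 36951901, minus strand), a dNTP hydrolase, fell, with 1.97, 1.99 and 1.92 FPKM in 48 h libraries, against 2.35, 2.65 and 2.89 FPKM in control libraries. The 48 h libraries were tightly grouped below all controls (-0.29 ± 0.07, adjusted p = 0.0114). BST2 (tetherin, which holds budding virus at the membrane) and TRIM22 were not tested, with 2 to 12 and 0 to 7 fragments per library. Among the transcription factors, STAT2 and IRF7 were tested and neither was called at 48 h against control. STAT2 had 4.62, 5.20 and 5.10 FPKM in 48 h libraries and 4.82, 5.20 and 5.20 FPKM in control libraries (-0.02 ± 0.07, adjusted p = 0.835), with overlap. IRF7, the amplifier of type I interferon genes, had 3.24, 3.18 and 2.77 FPKM in 48 h libraries, against 2.735, 2.26 and 2.69 FPKM in control libraries. Its groups were narrowly apart and it was not called (0.19 ± 0.08, adjusted p = 0.0924). IRF1, below the filter, had 0.730, 0.769 and 0.775 FPKM in 48 h libraries, against 0.543, 0.620 and 0.400 FPKM in control libraries. Its groups did not overlap, at a ratio of means of 1.46, and it was not tested. In a fit with no filter IRF1 was not called (adjusted p = 0.202). IRF9, the DNA-binding partner of STAT2, overlapped at 0.412 to 0.744 FPKM in 48 h libraries and 0.391 to 0.502 FPKM in control libraries.

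The PARP9, DTX3L and PARP14 genes lie together on chromosome 3, and PARP9 with the ubiquitin ligase DTX3L forms a pair that supports interferon signalling. DTX3L had 9.90, 10.7 and 9.97 FPKM in 48 h libraries, against 7.92, 7.87 and 8.19 FPKM in control libraries. It rose by 0.32 ± 0.05 (adjusted p = 0.00141), with no overlap. PARP9, transcribed away from DTX3L with 340 shared bases, had 2.18, 2.16 and 2.33 FPKM in 48 h libraries, against 1.41, 1.87 and 1.53 FPKM in control libraries. PARP9 rose by 0.31 ± 0.08 (adjusted p = 0.0176), with no overlap. As folds of mean FPKM, which the pseudocount does not shrink, the rises were 1.39 for PARP9 and 1.28 for DTX3L. The PARP9 call missed the threshold once control replicate 1, control replicate 3 or 48 h replicate 3 was removed (adjusted p up to 0.0625). PARP14, an ADP-ribosyltransferase, had 8.07, 8.59 and 7.91 FPKM in 48 h libraries, against 7.22, 7.18 and 7.44 FPKM in control libraries. The groups did not overlap, but it was not called (0.15 ± 0.09, adjusted p = 0.254). Without 24 h replicate 3 PARP14 was called (adjusted p = 0.0161), as it was in a fit to only the 2 groups (0.0287).

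Of the class I chains, the 3 tested heavy chains rose and the light chain did not. HLA-C (ENSG00000204525, chromosome 6, 31268749 to 31272130, minus strand) had 34.8, 34.0 and 38.9 FPKM in 48 h libraries, against 24.7, 24.7 and 25.1 FPKM in control libraries. The control libraries were nearly equal and all 48 h libraries lay far above them (0.51 ± 0.06, adjusted p = 0.000453). HLA-B (ENSG00000234745, chromosome 6, 31269491 to 31357188, minus strand) had 22.7, 24.6 and 24.7 FPKM in 48 h libraries, against 17.3, 16.15 and 17.3 FPKM in control libraries. The 2 groups were clearly apart (0.48 ± 0.10, adjusted p = 0.00659). HLA-E, which presents signal peptides to natural killer cells, had 40.65, 38.7 and 42.4 FPKM in 48 h libraries, against 35.4, 33.2 and 36.9 FPKM in control libraries. Its rise was smaller (0.20 ± 0.05, adjusted p = 0.0178), and it missed the threshold once 48 h replicate 1, 48 h replicate 3 or control replicate 2 was removed (adjusted p up to 0.0617). HLA-F was not tested, at 0.931 to 1.03 FPKM in 48 h libraries and 0.545 to 0.805 FPKM in control libraries, without overlap. A fit with no filter did not call HLA-F (adjusted p = 0.296).

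HLA genes share near-identical stretches, and the annotated span of HLA-B covers most of HLA-C, so the split of reads between them is uncertain. B2M had 67.4, 65.8 and 69.7 FPKM in 48 h libraries and 72.7, 67.5 and 71.9 FPKM in control libraries. Its groups overlapped (-0.06 ± 0.06, adjusted p = 0.516). Within each library the level of HLA-B was 0.336 to 0.374 of that of B2M at 48 h, against 0.239 to 0.241 in control, and the level of HLA-C was 0.516 to 0.559 of it, against 0.34 to 0.366. NLRC5, the transactivator of class I genes, was below the filter, at 0.549 to 0.765 FPKM in 48 h libraries and 0.502 to 0.603 FPKM in control libraries, with overlap.

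**Figure D3:**
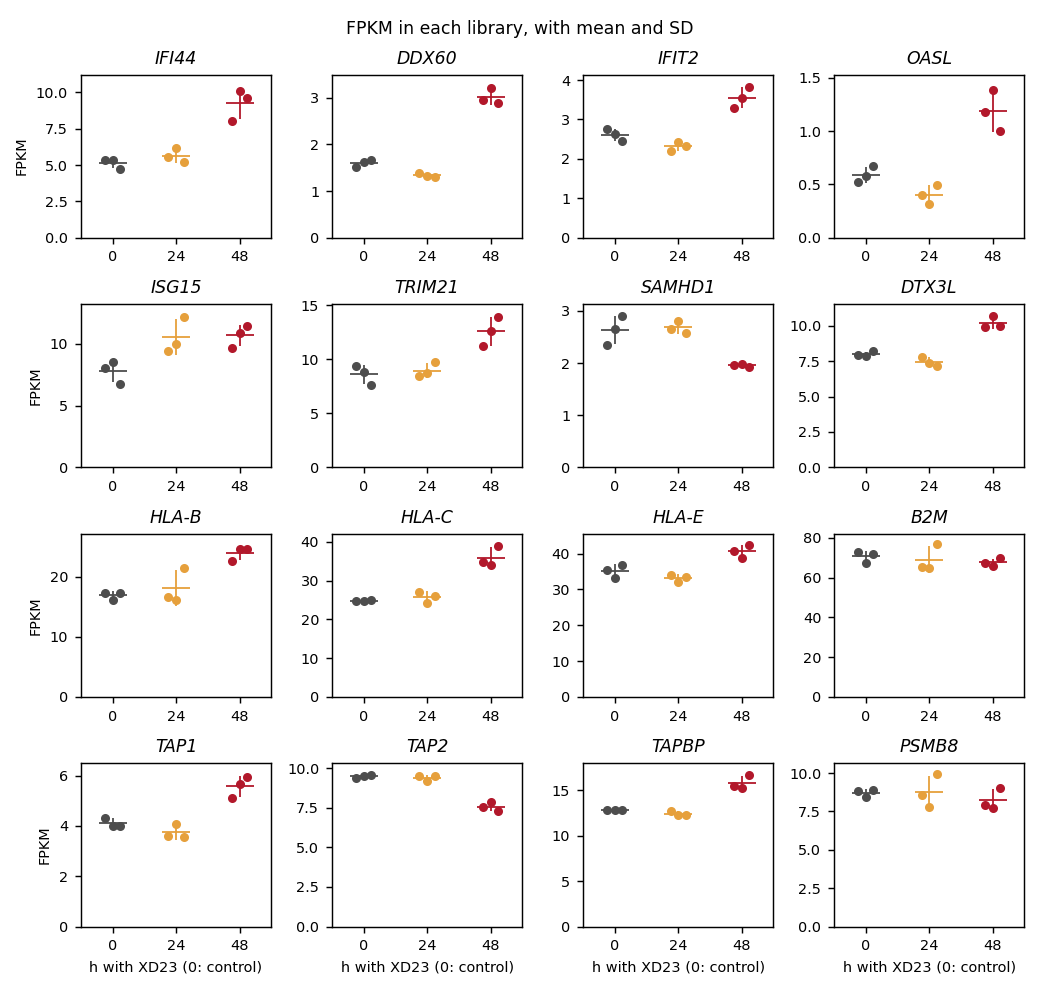
FPKM in each of the 9 libraries for 16 of the genes, with 1 point per library, a horizontal line at the mean and a vertical line of 1 SD (n = 3), by hours with XD23 (0 for control); each vertical axis starts at 0 and has its own scale. IFI44, DDX60, IFIT2, OASL, TRIM21, DTX3L, HLA-B, HLA-C, HLA-E, TAP1 and TAPBP are higher at 48 h alone, ISG15 lies above control at both times and was called at 48 h only, SAMHD1 and TAP2 are lower at 48 h, and B2M and PSMB8 overlap across the groups.

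In the peptide loading machinery TAP1 and TAP2, the paired subunits of the peptide transporter, moved in opposite directions. TAP1 (ENSG00000168394, chromosome 6, 32845209 to 32853978, minus strand) had 5.12, 5.66 and 5.94 FPKM in 48 h libraries, against 4.32, 4.01 and 4.004 FPKM in control libraries. It rose by 0.36 ± 0.06 (adjusted p = 0.00391), with no overlap. TAP2 (ENSG00000204267, chromosome 6, 32821833 to 32838780, minus strand) had 7.565, 7.86 and 7.28 FPKM in 48 h libraries, against 9.39, 9.52 and 9.59 FPKM in control libraries. It fell by 0.29 on the log2 scale (SE 0.04, adjusted p = 0.0009), also with no overlap. The ratio of TAP1 to TAP2 within a library was 0.676, 0.72 and 0.816 at 48 h, against 0.46, 0.421 and 0.418 in control. The annotated span of TAP2 is shared over 16948 bases with AL669918.1, a gene on the same strand with no value here. Shared exons were not looked for, so the values of TAP2 and this ratio may be uncertain. At their promoters TAP2 had 1 ISRE match, and TAP1 had the pair shown above.

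TAPBP had 15.5, 15.25 and 16.7 FPKM in 48 h libraries, against 12.9, 12.8 and 12.8 FPKM in control libraries. It rose by 0.28 ± 0.04 (adjusted p = 0.00169), and the groups did not overlap. ERAP1, the aminopeptidase that trims peptides in the endoplasmic reticulum, had 7.28, 7.205 and 6.86 FPKM in 48 h libraries, against 5.83, 6.26 and 5.53 FPKM in control libraries. Its groups did not overlap (0.24 ± 0.07, adjusted p = 0.0275). It missed the threshold with no filter, and once control replicate 1, control replicate 3, 48 h replicate 1 or 48 h replicate 2 was removed (adjusted p up to 0.0941), and ERAP1 overlaps CAST on the other strand. ERAP2, its relative, was below the filter at 0.765 to 0.923 FPKM in 48 h libraries and 0.525 to 0.704 FPKM in control libraries, without overlap. A fit with no filter did not call ERAP2 (adjusted p = 0.307).

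The immunoproteasome subunits replace constitutive ones after interferon, and none of the 3 was called. PSMB8 had 7.935, 7.74 and 9.03 FPKM in 48 h libraries and 8.83, 8.425 and 8.915 FPKM in control libraries (-0.08 ± 0.08, adjusted p = 0.531). PSMB9 had 2.84, 2.655 and 2.435 FPKM in 48 h libraries and 2.20, 1.89 and 2.515 FPKM in control libraries (0.19 ± 0.11, adjusted p = 0.245). PSMB10 had 1.58, 1.77 and 1.33 FPKM in 48 h libraries and 1.14, 1.45 and 1.27 FPKM in control libraries (0.16 ± 0.10, adjusted p = 0.285). All 3 pairs of groups overlapped. Against the constitutive partner it replaces, PSMB8 stood at 0.119 ± 0.0054 of the level of PSMB5 at 48 h and at 0.122 ± 0.0055 in control. PSMB9 was 0.0508 ± 0.004 of PSMB6 at 48 h and 0.0413 ± 0.0064 in control, and PSMB10 was 0.018 ± 0.0033 of PSMB7 at 48 h and 0.0132 ± 0.0026 in control, again with overlap. TAP2, PSMB8, PSMB9 and TAP1 are neighbours on chromosome 6, from 32821833 to 32859585, so this stretch held a gene called lower, a gene called higher and a pair that was not called. The annotated span of PSMB9 covers TAP1 on the opposite strand. Without strand-specific counts both may be uncertain, and shared exons were not looked for.

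**Figure D4:**
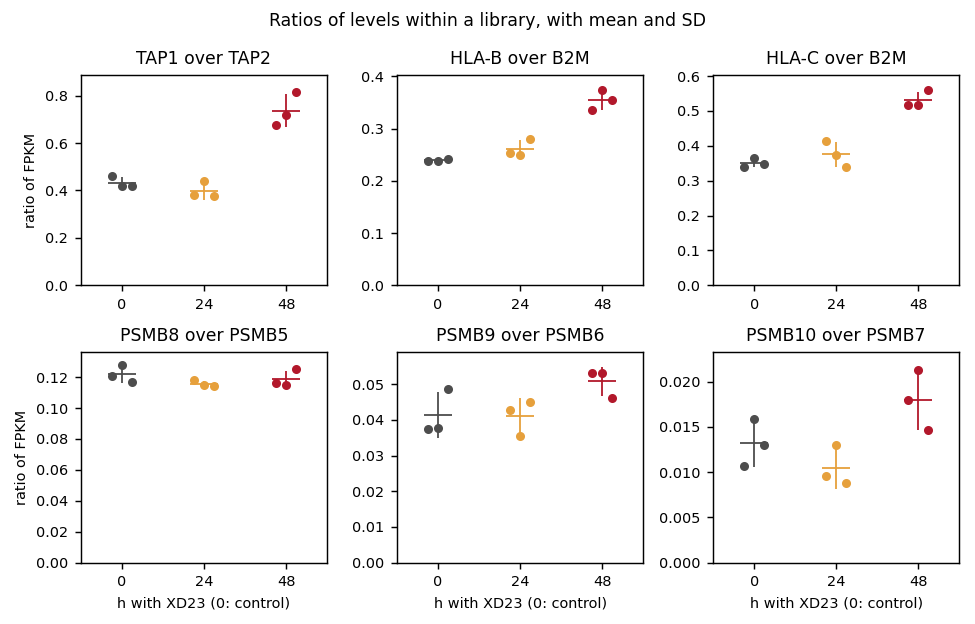
Ratios of FPKM between paired genes within each library, with 1 point per library, a line at the mean and 1 SD (n = 3), by hours with XD23 (0 for control). The ratios of TAP1 to TAP2 (0.676 to 0.816 at 48 h, against 0.418 to 0.46 in control), HLA-B to B2M and HLA-C to B2M are separate at 48 h, while the 3 ratios of immunoproteasome subunits to constitutive subunits overlap with control.

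Summed markers of other cell types also differed between the groups. The epithelial list, carried by KRT8 and EPCAM, summed to 29.8 to 31.9 FPKM in control libraries, 29.3 to 31.3 FPKM at 24 h and 21.3 to 23.5 FPKM at 48 h. The list for plasmacytoid dendritic cells, which make much interferon, summed to 2.81 to 3.08 FPKM in control libraries, 2.52 to 2.64 FPKM at 24 h and 3.83 to 4.07 FPKM at 48 h, most of it TCF4, while LILRA4 stayed under 0.1 FPKM. The endothelial list summed to 0.368 to 0.461 FPKM in control libraries, 0.236 to 0.307 FPKM at 24 h and 0.635 to 0.734 FPKM at 48 h, with VWF and CDH5 under 0.1 FPKM. The dendritic and endothelial sums lay below control at 24 h and above it at 48 h. Of the 8 mesenchymal markers of the line 4 were tested at 48 h against control: SPARC (log2 difference -0.56 ± 0.04 SE) and RUNX2 (-0.50 ± 0.05) fell, CDH11 (0.53 ± 0.04) rose and VIM was not called. The part of these markers in the results was not tested.

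After 24 h none of the 32 genes was called in either direction by limma, nor by voom with the same threshold; over all genes tested 0% were called higher and 0.00732% lower, which is 1 gene. At an unadjusted p under 0.05, 1 of the 32 was higher (ISG15) and 1 lower (DDX60), and over all genes 1015 were past that level. The median log2 fold change of the 32 genes was -0.02, as for all genes tested (-0.02), and 12 of the 32 were positive. In 2 genes, ISG15 and IFIT5, every 24 h library lay above every control, and in 4, DDX60, IFIT2, DTX3L and TAPBP, every one lay below; over all genes tested these shares were 4.81% and 8.38%.

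ISG15 had 9.40, 10.0 and 12.2 FPKM in 24 h libraries, against 8.015, 8.54 and 6.79 FPKM in control libraries. The groups did not overlap, and the 24 h mean of 10.5 FPKM was close to the 48 h mean of 10.7 FPKM, but the difference from control was not called (0.39 ± 0.11, adjusted p = 0.488). IFIT5 had 11.01, 11.01 and 11.7 FPKM in 24 h libraries (0.07 ± 0.04, adjusted p = 0.721). DDX60 had 1.40, 1.32 and 1.30 FPKM in 24 h libraries, below all controls (-0.15 ± 0.06, adjusted p = 0.644). IFIT2 had 2.21, 2.435 and 2.32 FPKM in 24 h libraries (-0.12 ± 0.06, adjusted p = 0.711), and TAPBP 12.7, 12.3 and 12.2 FPKM (-0.05 ± 0.04, adjusted p = 0.831). OASL, not tested, was likewise below all controls at 0.315 to 0.498 FPKM. For HLA-B the 24 h group was split, with 21.5 FPKM in replicate 3 and 16.6 and 16.15 FPKM in the others.

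The 48 h libraries also stood apart from the 24 h libraries in these genes. Setting 48 h against 24 h, which also tests whether the effects of the 2 times against the same controls differ, 16 of the 32 genes were higher, 3 were lower and 13 were not called; over all genes tested 16% were called higher and 16.3% lower. The median was 0.25, beside -0.01 for all genes tested, and 26 of the 32 were positive. In 19 genes the 48 h libraries lay above all 24 h libraries and in 3 below, with 23.1% of all genes above and 23.1% below. This comparison shares its 48 h libraries with the one against control, so the counts are not independent of it.

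Among the sensors and effectors, DDX60 (0.78 ± 0.06, adjusted p = 6.32e-05) and IFI44 (0.62 ± 0.09, adjusted p = 0.000991) were again the largest. IFI44 had 5.56, 6.14 and 5.22 FPKM in 24 h libraries, overlapping control and below all 48 h libraries. IFIH1, with 1.41, 1.34 and 1.12 FPKM in 24 h libraries, was called with more room here (0.35 ± 0.08, adjusted p = 0.00871) and in all 18 alternatives in which it was tested. IFITM1 had 1.53, 1.66 and 1.835 FPKM in 24 h libraries, below each 48 h library (0.58 ± 0.12, adjusted p = 0.00714). TRIM21 had 8.425, 8.74 and 9.71 FPKM at 24 h (0.45 ± 0.09, adjusted p = 0.00615), and SAMHD1 had 2.66, 2.81 and 2.57 FPKM (-0.31 ± 0.07, adjusted p = 0.00708). Each of these groups was separate from 48 h, TRIM21 below it and SAMHD1 above it. IFIT2 was higher by 0.45 ± 0.06 (adjusted p = 0.000893). OASL had a mean at 48 h of 2.95 times that at 24 h, and with no filter it was called higher by 0.64 (adjusted p = 0.00611).

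IFIT3, ISG20, PARP14 and IFI35, which missed the threshold against control, passed it against 24 h. IFIT3 had 1.38, 1.04 and 1.47 FPKM in 24 h libraries (0.37 ± 0.09, adjusted p = 0.0174), below all 48 h libraries, and its call ended with no filter and without 48 h replicate 2 or 3. ISG20 had 1.76, 1.775 and 1.92 FPKM in 24 h libraries (0.21 ± 0.06, adjusted p = 0.0322). IFI35 had 4.015, 2.997 and 3.54 FPKM in 24 h libraries and was lower at 48 h (-0.29 ± 0.08, adjusted p = 0.0226). Neither gene overlapped with its 48 h values. The calls of ISG20 and IFI35 ended without some of the libraries, with no filter and in a fit to only the 2 groups, with adjusted p up to 0.114 for ISG20 and 0.0697 for IFI35. PARP14 had 7.24, 7.285 and 5.43 FPKM in 24 h libraries, with replicate 3 well below the others, and its call (0.27 ± 0.09, adjusted p = 0.0479) ended in 9 of 19 alternatives. PARP9 had 1.70, 1.54 and 1.54 FPKM in 24 h libraries (0.32 ± 0.08, adjusted p = 0.0148), and DTX3L had 7.83, 7.39 and 7.19 FPKM (0.40 ± 0.05, adjusted p = 0.000369). Both were separate from 48 h.

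HLA-B, HLA-C, HLA-E, TAP1, TAP2 and TAPBP were called in the same direction as against control, B2M was called in neither comparison and ERAP1 against control only. HLA-F, NLRC5 and ERAP2 were not tested. HLA-C had 27.0, 24.2 and 26.1 FPKM in 24 h libraries (0.46 ± 0.06, adjusted p = 0.000595), and HLA-B was higher at 48 h by 0.40 ± 0.10 (adjusted p = 0.0133). HLA-E had 34.0, 32 and 33.4 FPKM in 24 h libraries (0.28 ± 0.05, adjusted p = 0.00321). In all 3 heavy chains the lowest 48 h library was above the highest 24 h library. TAP1 had 3.59, 4.07 and 3.56 FPKM in 24 h libraries (0.47 ± 0.06, adjusted p = 0.000891), and TAPBP was higher at 48 h by 0.33 ± 0.04 (adjusted p = 0.00068). TAP2 had 9.48, 9.21 and 9.47 FPKM in 24 h libraries and was lower at 48 h (-0.28 ± 0.04, adjusted p = 0.000959). ERAP1 had 6.40, 6.80 and 5.62 FPKM in 24 h libraries, with a mean between those of the other groups, and was not called (0.16 ± 0.07, adjusted p = 0.1). IRF7 (0.22 ± 0.08, adjusted p = 0.05) and PSMB10 (0.31 ± 0.10, adjusted p = 0.0506) did not pass the threshold, each with all 48 h libraries above all 24 h libraries, and they passed it in 5 and 6 of 18 alternatives. IRF7 had 2.53, 2.30 and 2.60 FPKM and PSMB10 had 0.920, 1.31 and 0.982 FPKM in 24 h libraries. The untested HLA-F, NLRC5, IRF1 and ERAP2 also lay above all 24 h libraries at 48 h, at 0.696 to 0.930, 0.449 to 0.530, 0.558 to 0.655 and 0.558 to 0.749 FPKM at 24 h. With no filter none of them was called in this comparison (adjusted p 0.285 to 0.5).

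The rest of the pathway was read from 69 further genes found in the table, of which 45 were tested: 17 rose at 48 h against control, 2 fell and 26 were not called, where 13.3% of all genes tested were called higher and 15.2% lower. Of the interferon genes looked for, the 4 found (IFNE, IFNK, IFNL1 and IFNL2) lay between 0 and 0.811 FPKM and none was tested. IFNB1, IFNL3 and IFNG were looked for and not found, and the interferon alpha genes were not looked for. Of the receptors and their kinases, 5 of 7 rose and 0 fell. JAK2, the kinase of the interferon gamma receptor, averaged 6.27 ± 0.386 FPKM at 48 h and 4.04 ± 0.19 FPKM in control (0.53 ± 0.06, adjusted p = 0.000518). IFNGR2, a chain of that receptor, averaged 30.7 ± 0.254 FPKM at 48 h and 21.7 ± 0.893 FPKM in control (0.48 ± 0.07, adjusted p = 0.00109). TYK2, the kinase of the type I receptor, rose by 0.23 ± 0.07 (adjusted p = 0.0324), a call that ended in 6 of 19 alternatives.

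In the sensing pathway 3 of 8 were called higher and 0 lower: IRF3, the factor that switches on interferon genes (0.38 ± 0.07), the DNA-sensing adaptor STING1 (0.37 ± 0.07) and the DNA sensor CGAS (0.27 ± 0.06). The CGAS call missed the threshold once control replicate 1, control replicate 3 or 48 h replicate 2 was removed (adjusted p up to 0.0555). Of the 8, 5 lay wholly above control at 48 h and 1 wholly below, beside 22.7% and 27.7% of all genes tested. The 1 below, EIF2AK2, was named after its values were seen and was not called (-0.19 ± 0.06, adjusted p = 0.0578). The untested TLR3 also lay below control. Of the brakes 2 of 6 rose and 0 fell, IRF2, which competes for the ISRE (0.61 ± 0.04), and SOCS3, which blocks JAK signalling (0.57 ± 0.07). Among 12 other tested interferon-stimulated genes 5 rose and 1 fell. Beside the counts of these short lists, 13.3% of all genes tested were called higher and 15.2% lower. CXCL11, a chemokine that draws T cells, averaged 1.87 ± 0.355 FPKM at 48 h and 0.714 ± 0.242 FPKM in control (0.74 ± 0.14, adjusted p = 0.00426). It reached 1 FPKM in the 48 h libraries alone, so it passed the filter only through the group where it is high. Its place among the 5 that rose is therefore not free of that choice. In a fit with no filter its adjusted p was 0.0152. HERC5, the ligase that attaches ISG15, rose by 0.33 ± 0.05, and UBE2L6, the conjugating enzyme of the same pathway, by 0.33 ± 0.06. LY6E, named after its values were seen because it was the 1 lower gene, averaged 26.2 ± 1.32 FPKM at 48 h and 33.1 ± 0.576 FPKM in control (-0.32 ± 0.04, adjusted p = 0.00108).

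Of 12 further class I genes 2 rose and 1 fell, near the shares of all genes tested (13.3% and 15.2%). CALR (calreticulin, a chaperone of class I folding) averaged 128.1 ± 4.33 FPKM at 48 h and 102.8 ± 2.73 FPKM in control (0.31 ± 0.04, adjusted p = 0.000724). CANX (calnexin, which acts earlier on the same chains) averaged 73.2 ± 1.95 FPKM at 48 h and 81.3 ± 1.48 FPKM in control (-0.15 ± 0.03, adjusted p = 0.0112), a call that ended after quantile normalization (adjusted p = 0.246). The constitutive subunits PSMB5 (-0.05 ± 0.09), PSMB6 (-0.04 ± 0.08) and PSMB7 (-0.17 ± 0.07) were not called. The 6 class II genes found, which other cells use to present to helper T cells, lay between 0 and 0.891 FPKM in all libraries and none was tested. Against 24 h, 16 of the 45 were higher at 48 h and 5 lower, where 16% of all genes tested were called higher and 16.3% lower, with 5 of 7 receptor and kinase genes and 4 of 8 sensing genes among the higher and 4 of 12 class I genes among the lower. At 24 h none of the 45 was called against control by limma or voom, and 1 was past an unadjusted p of 0.05.

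Promoter matches were set beside the changes at 48 h. An ISRE match was found in 10 of 13 genes called higher at 48 h against control, in 1 of 2 called lower, in 9 of 13 not called and in 6 of 10 not tested. A kB match was found in 7 of 13 called higher, in 0 of 2 called lower, in 4 of 13 not called and in 3 of 10 not tested, and a GAS match in 2, 0, 2 and 5 of the same groups. IFIT5, which was not called, had 3 ISRE matches, as many as IFIH1 and IFI6 and more than IFI44. B2M, also not called, had 2 ISRE and 2 kB matches, while HLA-B and HLA-C, which rose, matched the kB letters alone. These counts describe letters in windows of equal length and were not tested.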

How the data were processed

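FPKM values for 36810 genes in 9 libraries, replicates kept apart, were deposited by the authors. The submitters' processing notes name HISAT2, featureCounts, Subread, DESeq2 and hg38; the sources used here give no versions, settings, strand or annotation. The libraries were polyadenylated RNA with random primers, per the labels' protocols. Names came from the gene name table supplied (36724 identifiers), positions from GENCODE on GRCh38. Whole fragments (tolerance 0.001) were recovered from the values with 1 total per library and cover 99.96% to 99.97% of it; they carry counting error only.

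Genes with at least 1 FPKM in at least 3 of 9 libraries (13657) were fitted on log2(FPKM + 1), a scale that understates changes of low genes, with 1 mean per group in limma 3.58.1 (R 4.3.3; trend; 6 degrees of freedom left). Two-sided p-values were Benjamini-Hochberg adjusted over all 13657 genes and called under 0.05. The fit was also run on simulated libraries that all had the same spread. None of them stood apart as 24 h replicate 3 does, so that run does not show how the fit performs on these data. Errors on fold changes are SE, on FPKM SD. With 3 against 3 libraries an exact permutation test cannot go below 0.1, so none was run.

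The members and lists were chosen with earlier results of these data known. Every member is accounted for; called or non-overlapping members have their values given, untested ones their range, and from each pathway list up to 3 called genes with the largest fold change, plus PSMB5, PSMB6 and PSMB7; some genes of these lists are counted but not reported here. Alternatives were other pseudocounts, filters and scalings, no trend, 2 groups only, a replicate block and leaving out each library; voom on fragments was added after seeing the data.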

Additional observations from a re-analysis of the deposited data

Results flagged for a closer look

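For 19 of the 32 genes tested, the effect at 48 h differed from the effect at 24 h against the same control libraries, by limma's test of 48 h against 24 h (adjusted p under 0.05). Over all genes tested, 16% were called higher and 16.3% lower by that test. The differences of the 19 genes, 48 h minus 24 h on the log2 scale, were positive in 16. They were 0.35 for IFIH1, 0.78 for DDX60, 0.45 for IFIT2, 0.37 for IFIT3, 0.21 for ISG20, 0.62 for IFI44, 0.58 for IFITM1, 0.45 for TRIM21, 0.32 for PARP9, 0.27 for PARP14 and 0.40 for DTX3L. In the class I pathway they were 0.40 for HLA-B, 0.46 for HLA-C, 0.28 for HLA-E, 0.47 for TAP1 and 0.33 for TAPBP. The 3 negative differences were -0.29 for IFI35, -0.31 for SAMHD1 and -0.28 for TAP2. ISG15 is the called gene with nearly the same level at both times (difference 0.02 ± 0.11, adjusted p = 0.892).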

How the results depend on the processing

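Against control at 48 h, the 15 genes higher became 10 to 18 when 1 library was left out, and the 2 lower became 2 to 3. A filter at 5 FPKM, which left 18 genes, gave 1 lower at 48 h against control, and 9 higher and 1 lower at 48 h against 24 h, against 16 and 3. It left out IFIH1, DDX60, IFIT2, IFITM1, PARP9 and SAMHD1, which the main fit called at 48 h against control. With no filter, the 48 h calls of IFIH1, ISG15, IFITM1 and ERAP1 against control ended (limma, adjusted p 0.0636 to 0.1). Leaving out 1 library gave 13 to 16 higher and 2 to 3 lower at 48 h against 24 h. At 24 h against control the counts were 0 under all 19 alternatives, and over all genes they were 0 to 2 in each direction. DDX60, IFIT2, IFI44, TRIM21, SAMHD1, DTX3L, HLA-B, HLA-C, TAP1, TAP2 and TAPBP held their 48 h call against control in every alternative in which they were tested, and no called gene changed sign. Over all genes, the 1811 higher at 48 h against control became 1183 without 48 h replicate 2, and the 2080 lower became 1386 without control replicate 1 and 1368 without 48 h replicate 2. Same-numbered libraries deviated together weakly and not in every pair (correlations -0.057 to 0.239). With 3 libraries per group these correlations cannot decide whether the numbers pair the libraries, which the labels do not state. With the replicate block, 14 genes were higher and 2 lower at 48 h against control, 0 at 24 h, and 18 and 3 at 48 h against 24 h. The 14 untested genes lay below the filter on FPKM, and 7 of them averaged under 0.3 FPKM in control. Their fragments per library ranged widely, from 0 to 3 for OAS2 to 122 to 217 for NLRC5. The tested PSMB10 had 31 to 66, so the filter, which scales to gene length, and not depth alone left genes untested.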
